A study of Mus musculus with 9 samples.

Results

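Transcripts of 41 genes that encode serine/arginine-rich (SR) splicing factors, heterogeneous nuclear ribonucleoproteins (hnRNPs) and the SF3 and U2AF complexes were followed in neutrophils from the bone marrow of Rragc+/+ and RragcS74N/+ mice. The members were chosen by symbol alone, as every listed gene whose symbol starts with Srsf, Hnrnp, Sf3a, Sf3b or U2af, and they were 41 of the 7197 genes with values. A further 2 genes of these names, Srsf12 and U2af1l4, had no row in the table. The members comprised 10 SR proteins, 20 hnRNP proteins, 9 SF3 subunits and 2 U2AF subunits. Of these, 40 had a mean of at least 10 normalized counts and were tested between the genotypes. Sf3a2, a subunit of the SF3a complex, had a mean of 8.24 normalized counts (range 3.32 to 15.9) and was not tested.

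RagC, the product of Rragc, is part of the Rag GTPase heterodimer that recruits the growth-regulating kinase complex mTORC1 to the lysosome when nutrients are present. The series asked how a mutation in RagC that raises nutrient signalling alters neutrophils of young animals. It holds 5 Rragc+/+ libraries, labelled RagC S74N (+/+), and 4 RragcS74N/+ libraries, labelled RagC S74N (KI/+), in which 1 of the alleles carries the knocked-in change in every tissue of the animal. All were made from cells of mice aged 2 months that were sorted as CD45+, CD11b+ and Ly6G+, and the labels give no treatment. The study describes neutrophils from equal numbers of young mice per genotype, and fewer mutant libraries than that are analysed here. The labels do not tie each library to an animal, so the p-values measure the spread between these libraries.

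Removal of introns from pre-mRNA begins with recognition of the splice sites. U2AF binds the 3′ splice site and its polypyrimidine tract, and helps the U2 particle, which contains the SF3a and SF3b complexes, to engage the branch point. SR proteins bind exonic sequences and mostly favour inclusion of the exon, whereas hnRNPs coat nascent RNA and often oppose it, and both classes regulate their own transcripts through exons that trigger nonsense-mediated decay. Intron retention is a known feature of granulocyte maturation. The libraries read the 3′ ends of polyadenylated RNA, so the values rest on reads counted per gene and carry no information on which exons were joined.

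The libraries held 1214295 to 1973957 recovered reads, of which 5010 to 13258 belonged to the members. Rragc+/+ replicate 2 stood apart from the other libraries, with a mean Spearman correlation of 0.891 across genes with the other 8, against 0.929 to 0.951 for each of the rest, and changes of the members that it moves are given with and without it. All 13 neutrophil markers examined were listed, Ly6g, Itgam and Ptprc among them, with summed values of 143504 to 205334 in Rragc+/+ and 133436 to 227137 in RragcS74N/+. Of 8 erythroid markers 6 were listed, with sums of 1090 to 5585 in Rragc+/+ and 378 to 2147 in RragcS74N/+. Hba-a1, Hba-a2, Hbb-bs, Hbb-bt and Alas2 were each lower in RragcS74N/+ at an unadjusted limma p under 0.05, and none passed after adjustment. The remaining listed erythroid marker went the other way, with a log2 change of 0.58. Of all 6673 genes tested, 254 were lower at that threshold. The sums of 3 listed monocyte markers of 7 ran from 234 to 495 and from 227 to 290. Those of 3 eosinophil and basophil markers of 5 ran from 46.9 to 121 and from 51.7 to 206. By log2 change 2 of the latter were above 0 and 1 below (-0.14), and their median SD within genotypes was 1.22 on the log2 scale. Prg2 was higher at an unadjusted limma p under 0.05, as were 134 of all genes tested, and did not pass after adjustment. The 8 proliferation markers summed to 381 to 785 and 412 to 672, 1 B cell marker of 8 and 1 T and NK cell marker of 6 were listed, and none of 4 platelet markers was. The part of these cells in the results below was not tested. Rragc itself was at 71.0 ± 10.3 normalized counts in Rragc+/+ (SD, n = 5) and 65.8 ± 9.52 in RragcS74N/+ (SD, n = 4), and a 3′ tag does not read the edited base. The log2 changes of Rragc, Ly6g, Itgam and Ptprc were -0.11, 0.05, -0.09 and -0.16, each with an adjusted limma p of at least 0.781.

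The members were expressed over a wide range, from Hnrnpk with a mean of 793 normalized counts, which placed it at rank 259 of all listed genes, to Sf3a2. The values are 3′ reads divided by a size factor and are not scaled by transcript length, so that each transcript is sampled near its end whatever its length. Srsf5, with a mean of 663 normalized counts, led the SR proteins and Sf3b1, with 584, led the SF3 subunits. The 20 hnRNP genes together summed to 4325 ± 813 normalized counts in Rragc+/+ and 4713 ± 173 in RragcS74N/+ (SD, n = 5 and 4). The 10 SR genes summed to 1573 ± 78.4 and 1690 ± 52.2, the 9 SF3 genes to 1441 ± 196 and 1589 ± 177, and the 2 U2AF genes to 189 ± 27.8 and 162 ± 46.8. Values of the genotypes overlapped for each of these sums, and the sums were not tested. All members together took between 0.413% of recovered reads, in Rragc+/+ replicate 2, and 0.672%, in Rragc+/+ replicate 1, and the 4 RragcS74N/+ libraries lay between these, at 0.567% to 0.655%.

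**Figure D1:**
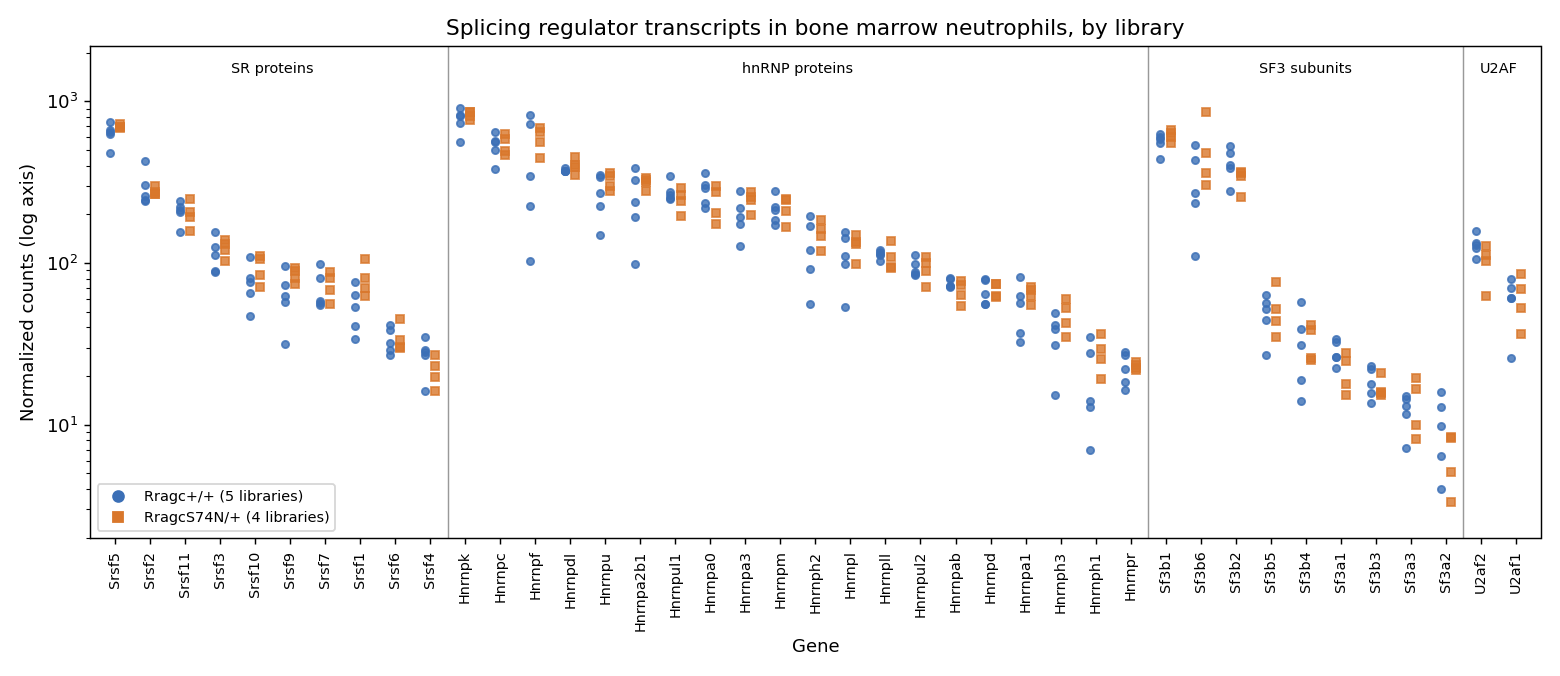
Normalized counts (log axis) of the 41 genes in each library, grouped by role and ordered by mean within each role, with blue circles for the 5 Rragc+/+ libraries and orange squares for the 4 RragcS74N/+ libraries. Points of the genotypes overlap for each gene, and the Rragc+/+ points of Hnrnpf spread from 103 to 822.

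No member differed between the genotypes after adjustment. In limma on log2(value + 1), with adjustment over all 6673 genes tested, 0 of 40 members and 0 genes in all (0%) passed an adjusted p of 0.05, and the smallest adjusted p of any member was 0.713. edgeR and DESeq2 on the recovered reads also gave 0 calls after adjustment, and each had Srsf1 as the 1 member at an unadjusted p under 0.05. At an unadjusted p under 0.05, 1 member stood (Srsf1, higher in RragcS74N/+), against 388 of all genes (5.81%), of which 134 were higher (2.01%). The values of the genotypes did not overlap for 0 members, and for 113 of all genes (1.69%). Of the 40 members 28 had a log2 change above 0 and 12 below it, while 53.4% of all genes tested were above 0. The median log2 change was 0.09 over the members, with a range from -0.41 to 0.75, and 0.02 over all genes. By role, 7 of 10 SR genes, 15 of 20 hnRNP genes, 5 of 8 tested SF3 genes and 1 of 2 U2AF genes were above 0, with median log2 changes of 0.11, 0.10, 0.09 and -0.17. The SF3 median was -0.06 without Rragc+/+ replicate 2 and -0.07 without RragcS74N/+ replicate 4. The U2AF median was 0.05 without RragcS74N/+ replicate 1, and with the trend on 3′ GC content removed it was 0.04 and the SR median -0.03. Within genotypes the median SD was 0.325 over the members and 0.356 over all genes on the log2 scale. In bulk samples a smaller share of cells that express a gene cannot be told apart from less RNA per cell.

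**Figure D2:**
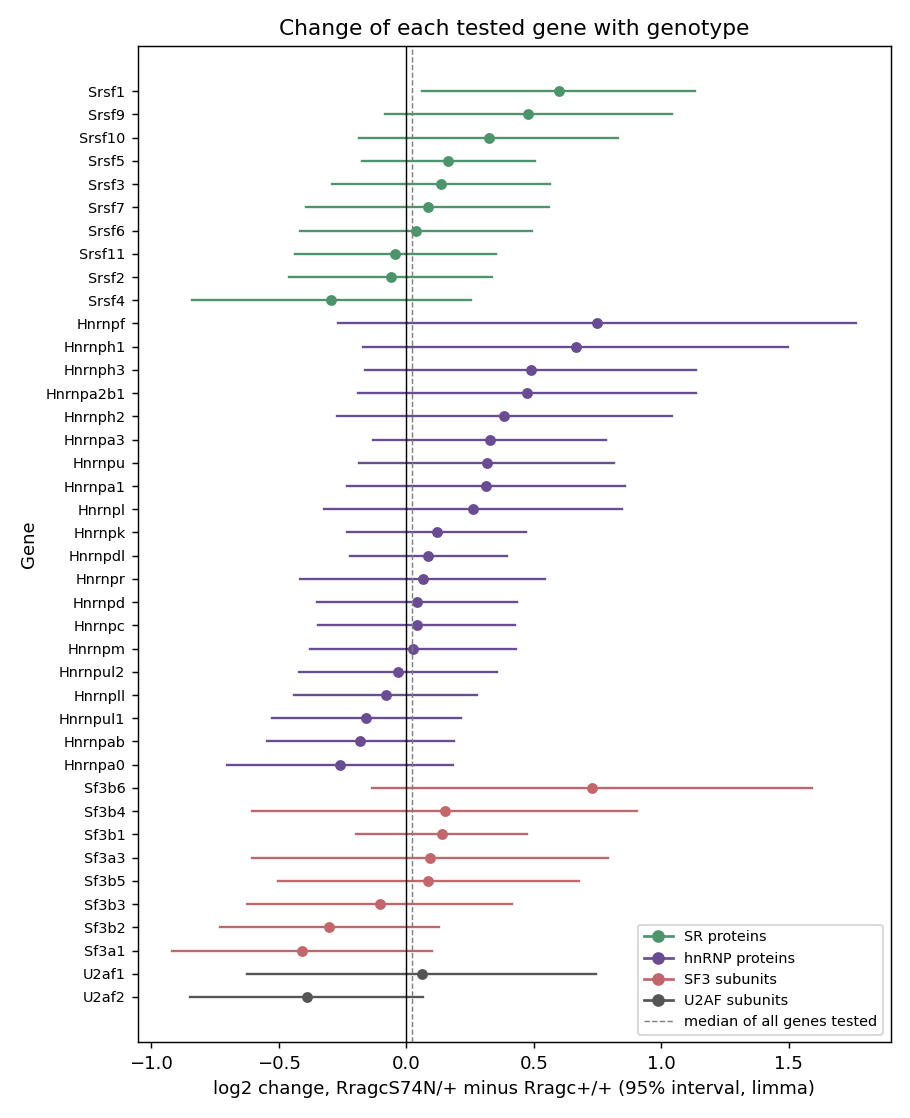
Log2 change between the genotypes (RragcS74N/+ minus Rragc+/+) of the 40 tested genes with its 95% interval from limma, coloured by role, with the median of all genes as a dashed line. The interval of Srsf1, from 0.06 to 1.13, is the only one that lies clear of 0, before adjustment over all genes.

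Among the SR proteins, Srsf1, the founding member, which promotes use of nearby splice sites and also acts in export and translation, had the largest change. Normalized counts in the Rragc+/+ libraries, here and below in the order of replicates 1 to 5, were 63.9, 33.9, 53.4, 41.0 and 76.2, and in RragcS74N/+, replicates 1 to 4, 62.3, 70.1, 81.3 and 106.6. The 3 lowest values were all Rragc+/+, those of replicates 2, 4 and 3, and the genotypes overlapped between 62.3 and 76.2. The means were 53.7 ± 17.1 (SD, n = 5) and 80.1 ± 19.3 (SD, n = 4), a log2 change of 0.60 (SE 0.249, 95% interval 0.06 to 1.13), with an unadjusted limma p of 0.0311 and an adjusted p of 0.713. The change was 0.45 without Rragc+/+ replicate 2, with an unadjusted limma p of 0.0677. It stood at an unadjusted p under 0.05 in 5 of the 9 fits that each left out 1 library, and not in those without Rragc+/+ replicate 2, Rragc+/+ replicate 4, RragcS74N/+ replicate 3 or RragcS74N/+ replicate 4.

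Srsf5 and Srsf2 were the most abundant SR transcripts. Srsf5 had 742, 478, 649, 662 and 628 normalized counts in Rragc+/+ and 688, 693, 697 and 727 in RragcS74N/+. The 4 RragcS74N/+ values spanned 688 to 727 and lay inside the Rragc+/+ range, whose lower end was set by replicate 2. The log2 change was 0.16 (95% interval -0.18 to 0.50), and 0.07 without that library. Srsf2, which binds exonic enhancers and is mutated in myeloid malignancies, went the other way in the same library: Rragc+/+ values were 261, 428, 302, 247 and 243, and RragcS74N/+ values were 268, 299.9, 267 and 275. Replicate 2 was the highest of all 9 libraries for Srsf2, and the remaining 8 fell between 243 and 302. Its log2 change was -0.06 (95% interval -0.46 to 0.34), and 0.08 without that library.

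Srsf4 had the most negative change among the SR genes. Its normalized counts were 27.0, 35.1, 29.1, 16.1 and 28.1 in Rragc+/+ and 23.2, 16.3, 27.1 and 19.9 in RragcS74N/+. Both genotypes reached down to about 16, and the log2 change was -0.29 (95% interval -0.84 to 0.25), or -0.19 without Rragc+/+ replicate 2. Srsf9, Srsf10, Srsf3, Srsf7 and Srsf6 had log2 changes of 0.48, 0.32, 0.14, 0.08 and 0.04, and Srsf11 of -0.04. Without Rragc+/+ replicate 2 these were 0.25, 0.17, 0.05, 0.01, -0.03 and 0.01. For Srsf9 the interval ran from -0.08 to 1.04.

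The hnRNP genes were led by Hnrnpk, which binds C-rich RNA and DNA, and Hnrnpc, which binds uridine tracts of nascent transcripts and sorts them by length. Hnrnpk had 817, 563, 739.5, 905 and 813 normalized counts in Rragc+/+ and 770.5, 855, 816 and 856 in RragcS74N/+. The log2 change was 0.12 (95% interval -0.23 to 0.47), and 0.01 without Rragc+/+ replicate 2. Hnrnpc had 649, 382, 501, 565 and 557 in Rragc+/+ and 467, 494, 581 and 626 in RragcS74N/+, with a log2 change of 0.04 (95% interval -0.34 to 0.43), which was -0.07 without replicate 2. In both genes Rragc+/+ replicate 2 was the lowest library and the other values of the genotypes were interspersed.

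The hnRNP F/H family, closely related proteins that bind G-rich RNA and regulate exon choice and polyadenylation, included Hnrnpf, the member with the widest range. Hnrnpf had 822, 103, 346, 224 and 725 normalized counts in Rragc+/+ and 559.6, 445, 648 and 689 in RragcS74N/+. The RragcS74N/+ libraries sat in the upper part of the Rragc+/+ range, and the highest value was 7.99 times the lowest. With 88 recovered reads behind its lowest value and 1248 behind its highest, the log2 change was 0.75 (SE 0.474, 95% interval -0.27 to 1.77), with an adjusted limma p of 0.713, and 0.32 without Rragc+/+ replicate 2. On the recovered reads it was 0.39 in edgeR and 0.40 in DESeq2.

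Hnrnph1 had 27.7, 7.01, 14.1, 12.9 and 35.1 normalized counts in Rragc+/+ and 19.2, 29.5, 25.6 and 36.6 in RragcS74N/+, from 6 to 42 reads a library. Its log2 change of 0.66 (95% interval -0.17 to 1.5) became 0.38 without replicate 2. The related Hnrnph2 and Hnrnph3, shown because they shared the 2 lowest libraries and thus chosen after their values were seen, had log2 changes of 0.38 and 0.49, and of 0.13 and 0.22 without that library. On the recovered reads Hnrnph1, Hnrnph2 and Hnrnph3 were at 0.47, 0.26 and 0.40 in edgeR and at 0.50, 0.27 and 0.42 in DESeq2. Hnrnph2 stood at 196, 56.1, 120.0, 91.6 and 168 in Rragc+/+ and 184, 146, 118 and 163 in RragcS74N/+. Hnrnph3 stood at 41.5, 15.2, 39.4, 31.4 and 49.1 in Rragc+/+ and 35.1, 42.7, 52.7 and 59.6 in RragcS74N/+. In all 4 genes Rragc+/+ replicate 2 was the lowest library and Rragc+/+ replicate 4 the next, and the highest was Rragc+/+ replicate 1 for Hnrnpf and Hnrnph2 and RragcS74N/+ replicate 4 for Hnrnph1 and Hnrnph3.

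Among the other hnRNP genes, Hnrnpdl, a paralogue of Hnrnpd, had the smallest range of any member, from 352 to 453 normalized counts, the highest being 1.29 times the lowest, and a log2 change of 0.09 (95% interval -0.22 to 0.39). Hnrnpll, a regulator of CD45 exon choice in lymphocytes, ranged from 92.6 to 136. Hnrnpa2b1 resembled the F/H genes, with 385, 99.3, 240, 194 and 326 in Rragc+/+ and 279.8, 315, 325 and 335 in RragcS74N/+, and its change of 0.47 (95% interval -0.19 to 1.13) was 0.18 without replicate 2. Hnrnpa3, Hnrnpu, Hnrnpa1 and Hnrnpl had changes of 0.33, 0.32, 0.31 and 0.26, which were 0.18, 0.12, 0.16 and 0.02 without replicate 2. Those of Hnrnpr, Hnrnpd and Hnrnpm were 0.06, 0.04 and 0.03, and 0.15, -0.02 and -0.05 without it. Changes below 0 were those of Hnrnpa0 (-0.26), Hnrnpab (-0.18), Hnrnpul1 (-0.16), Hnrnpll (-0.08) and Hnrnpul2 (-0.03), and without replicate 2 they were -0.32, -0.19, -0.08, -0.07 and 0.03. Hnrnpa1 has near-identical processed copies in the genome and the alignment allowed reads with several matches, and Hnrnpm shares 1169 exon bases on the same strand with March2 and Hnrnpul2 shares 360 with AC129217.1 (GENCODE models on GRCm38), so their values are uncertain.

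Sf3b1, the largest SF3b subunit, which holds the branch point helix and is recurrently mutated in myelodysplasia, had 624, 438, 552, 587 and 599 normalized counts in Rragc+/+ and 666, 635, 606 and 549 in RragcS74N/+. Its log2 change was 0.14 (95% interval -0.20 to 0.48), and 0.05 without Rragc+/+ replicate 2. Sf3b6, the small subunit that contacts the branch point adenosine, had 431, 111, 236, 269 and 535 in Rragc+/+ and 302, 477, 360.0 and 861 in RragcS74N/+. The lowest value was Rragc+/+ replicate 2 and the highest RragcS74N/+ replicate 4, a range of 7.76 times, while the other 7 libraries of the genotypes interleaved. Its log2 change was 0.73 (SE 0.401, 95% interval -0.13 to 1.59) with an adjusted limma p of 0.713, and 0.40 without Rragc+/+ replicate 2.

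The largest SF3 changes in the other direction were those of Sf3a1, the SF3a subunit that contacts U1 and U2, and Sf3b2. Sf3a1 had 26.3, 32.7, 33.7, 22.5 and 26.1 normalized counts in Rragc+/+ and 27.8, 15.2, 24.9 and 17.8 in RragcS74N/+. The 2 lowest values were RragcS74N/+ replicates 2 and 4, and the log2 change was -0.41 (95% interval -0.92 to 0.10), the lowest of any member. Without Rragc+/+ replicate 2 it was -0.35, and U2af2 was lower, at -0.40. Sf3b2 had 402, 477, 385, 527 and 281 in Rragc+/+ and 345, 365, 362 and 256 in RragcS74N/+. Sf3b2 had a change of -0.30 (95% interval -0.73 to 0.13), or -0.24 without Rragc+/+ replicate 2. Its 4 highest values were all Rragc+/+, but Rragc+/+ replicate 5 fell below 3 of the 4 RragcS74N/+ libraries. Sf3b4, Sf3a3, Sf3b5 and Sf3b3 had changes of 0.15, 0.09, 0.09 and -0.10, or -0.09, 0.08, -0.11 and -0.03 without Rragc+/+ replicate 2. Sf3b3 shares 76 and 69 same-strand exon bases with Gm22193 and the small nucleolar RNA Snord111.

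The 2 U2AF subunits differed from each other in how they varied. U2af2, which binds the polypyrimidine tract, had 158, 124, 129, 133 and 106 normalized counts in Rragc+/+ and 63.0, 112, 127 and 103 in RragcS74N/+. RragcS74N/+ replicate 1 was far below the others, and the log2 change was -0.39 (95% interval -0.85 to 0.07), or -0.18 without that library and -0.40 without Rragc+/+ replicate 2. U2af1, which reads the AG at the 3′ splice site, had 69.8, 25.7, 60.9, 61.1 and 79.2 in Rragc+/+ and 36.5, 52.9, 85.1 and 69.0 in RragcS74N/+. The log2 change was 0.06 (95% interval -0.62 to 0.74) and became -0.21 without Rragc+/+ replicate 2, the lowest of its 9 values.

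Across roles, many members departed from their mean in the same library. Rragc+/+ replicate 2 gave the lowest value of the 9 libraries for 23 of 40 members, against 23.8% of all genes tested, and the highest for 5, against 25.9%. Those 5 were Srsf2, Srsf4, Hnrnpr, Hnrnpul1 and Hnrnpul2. The median deviation of the members from their own means over 9 libraries was -0.40 on the log2 scale in that library and 0.02 over all genes, and in the other 8 libraries the members' median lay between -0.05 and 0.15. In it 10 members were more than 1 log2 unit below their mean, as were 6.79% of all genes. They were Hnrnpf, Hnrnph1, Hnrnph2, Hnrnph3, Hnrnpa2b1, Hnrnpl, Srsf9, Sf3b4, Sf3b6 and U2af1, and each other library had 0 such members.

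**Figure D3:**
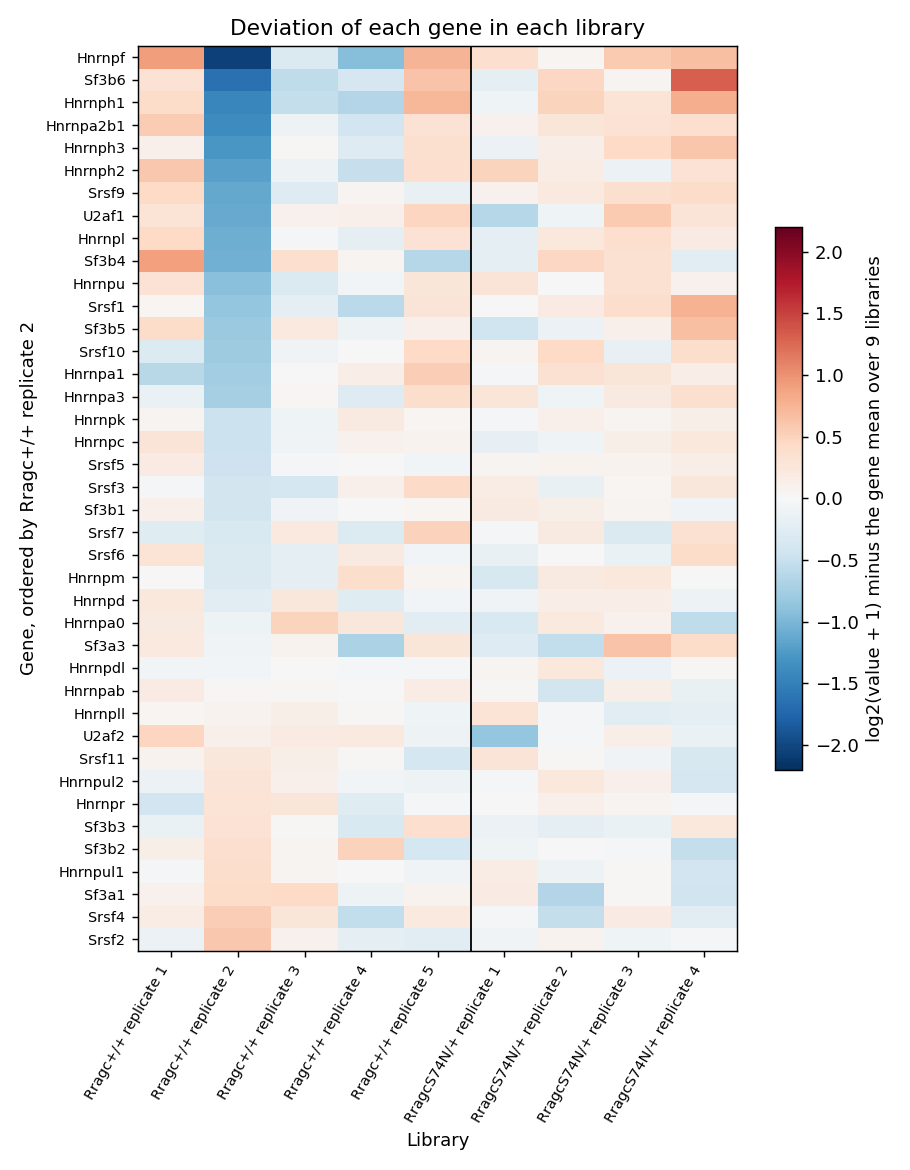
Deviation of each tested gene in each library, as log2(value + 1) minus the gene's mean over the 9 libraries (blue low, red high), with genes ordered by Rragc+/+ replicate 2 and a line between the genotypes. The blue column of Rragc+/+ replicate 2 covers most of the genes, with Hnrnpf at its top, and no other column is coloured so widely.

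The 3′ ends of the members were AT-rich. GC content was taken from the last 500 bases of the longest protein-coding transcript, or of the longest transcript where none was protein-coding. Its median was 37.7% over the 40 tested members, from 29.2% to 56.6%, against 43% over 6556 of the 6673 genes tested. The deviation in each library was set against GC content by Spearman correlation. Over these 6556 genes it was 0.068, 0.385, 0.249, 0.221 and -0.234 in Rragc+/+ replicates 1 to 5. In RragcS74N/+ replicates 1 to 4 it was -0.406, -0.192, -0.023 and -0.231. Over the members it was 0.095, 0.348, 0.415, 0.231 and -0.237, and -0.541, -0.370, 0.065 and -0.237. The trend thus went partly with genotype, so its removal can also remove change between the genotypes. The cause of the trend was not tested. Genes of 1 library share its depth and preparation, so these are descriptions. With each library's GC trend removed, 20 of 40 members were above 0 and 20 below, the members' median log2 change was -0.001 against 0.01 over all genes, of which 52.0% were above 0, and 0 members stood at an unadjusted p under 0.05 (3.87% of all genes). For the 4 highest changes of the main fit, the values were then 0.42 for Srsf1, 0.57 for Hnrnpf, 0.70 for Sf3b6 and 0.50 for Hnrnph1. For the 4 lowest they were -0.45 for Sf3a1, -0.25 for Sf3b2, -0.19 for U2af2 and -0.18 for Srsf4. Other genes moved among them: Srsf9, at 0.52, was above Hnrnph1 and Srsf1, and Hnrnpa0 (-0.35) and Hnrnpll (-0.27) were below Sf3b2.

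Without Rragc+/+ replicate 2, 24 of 40 members were above 0 and 16 below, 53.2% of all 6648 genes then tested were above 0, and the medians were 0.03 and 0.02. The change was smaller in size for 30 of the 40 members. At an unadjusted p under 0.05 there were 0 members (3.02% of all genes), and 0 after adjustment. Leaving out Rragc+/+ replicate 5 instead gave 6 members at an unadjusted p under 0.05 (Hnrnpa3, Hnrnpf, Hnrnph1, Sf3b2, Sf3b6 and Srsf1) among 13.7% of all genes, with a smallest adjusted p of 0.326 in limma. Leaving out Rragc+/+ replicate 1 gave 4 such members (Hnrnpa2b1, Hnrnpf, Srsf1 and Srsf9) among 9.6% of all genes.

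**Figure D4:**
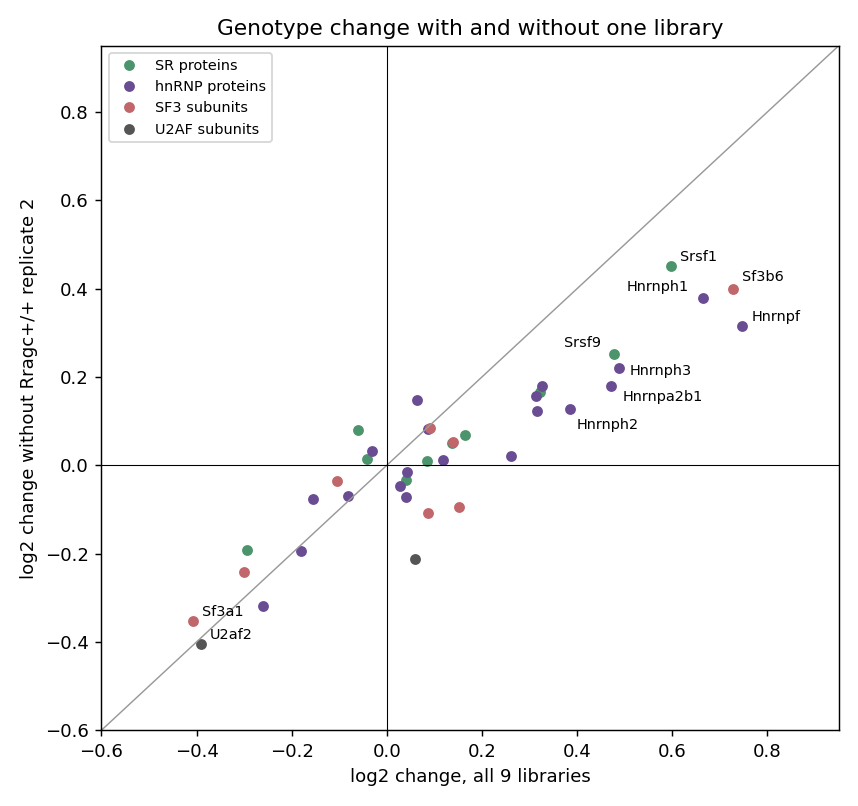
Log2 change (RragcS74N/+ minus Rragc+/+) of the 40 tested genes with all 9 libraries (horizontal axis) and without Rragc+/+ replicate 2 (vertical axis), coloured by role, with the line of equal change. Hnrnpf moves from 0.75 to 0.32 and Srsf1 from 0.60 to 0.45, while U2af2 stays near the line at -0.39 and -0.40.

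The promoter regions of Srsf1, the only member with an unadjusted p under 0.05, of Sf3b6, whose range was among the widest, and of Hnrnph2 and Hnrnph3, of the same family as Hnrnpf and lowest in the same 2 libraries, are printed below. Those of Hnrnpf and Hnrnph1 are not printed, although their changes were larger than those of Hnrnph2 and Hnrnph3. Each printed region runs 5′ to 3′ on the strand of the gene from 250 bases before to 50 bases after the start listed by RefSeq on GRCm38.p6 (the deposited values were made on GRCm39), and capitals mark matches to the searched letters.
Srsf1, chr11:88047123-88047422, plus strand: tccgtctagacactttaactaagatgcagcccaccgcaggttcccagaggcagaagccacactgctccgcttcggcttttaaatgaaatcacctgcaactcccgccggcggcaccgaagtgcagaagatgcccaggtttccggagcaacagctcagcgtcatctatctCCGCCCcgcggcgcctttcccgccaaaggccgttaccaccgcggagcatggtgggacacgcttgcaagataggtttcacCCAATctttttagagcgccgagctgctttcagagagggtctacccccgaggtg
Sf3b6, chr12:4817358-4817657, plus strand: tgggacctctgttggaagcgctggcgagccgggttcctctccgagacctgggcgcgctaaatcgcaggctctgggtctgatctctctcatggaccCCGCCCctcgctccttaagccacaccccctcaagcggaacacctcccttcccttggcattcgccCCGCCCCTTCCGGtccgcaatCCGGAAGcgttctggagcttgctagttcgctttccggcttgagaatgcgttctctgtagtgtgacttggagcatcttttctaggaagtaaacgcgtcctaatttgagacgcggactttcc
Hnrnph2, chrX:134600929-134601228, plus strand: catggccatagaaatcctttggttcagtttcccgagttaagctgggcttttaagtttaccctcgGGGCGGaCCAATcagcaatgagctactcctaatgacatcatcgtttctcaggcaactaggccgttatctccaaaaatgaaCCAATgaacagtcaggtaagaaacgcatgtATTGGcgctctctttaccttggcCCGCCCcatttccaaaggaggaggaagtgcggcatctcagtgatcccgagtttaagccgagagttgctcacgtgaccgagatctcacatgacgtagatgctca
Hnrnph3, chr10:63023800-63024099, minus strand: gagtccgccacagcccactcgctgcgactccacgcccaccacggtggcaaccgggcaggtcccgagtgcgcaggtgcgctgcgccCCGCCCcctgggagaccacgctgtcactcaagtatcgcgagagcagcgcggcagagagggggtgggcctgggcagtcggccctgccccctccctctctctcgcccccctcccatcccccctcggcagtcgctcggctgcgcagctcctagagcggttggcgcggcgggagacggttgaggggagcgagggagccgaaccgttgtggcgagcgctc

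The letters searched, on both strands, were CCGGAAG for ETS factors, GGGCGG for SP1, CCAAT for NF-Y, TATAAA for the TATA-binding protein, ATGGCGGC for YY1 and GCATGCGC for NRF1, and none of these contains another. All 4 windows held SP1 letters, which began 82 bases before the start in Srsf1, 155 and 91 in Sf3b6, 186 and 53 in Hnrnph2 and 165 in Hnrnph3. Sf3b6 also held 2 ETS matches, 85 and 70 bases before the start, the first directly after an SP1 match. Srsf1 held 1 CCAAT match, 3 bases before the start, and Hnrnph2 held 3, at 179, 106 and 76. None of the 4 windows held the TATA letters, and their GC contents were 58.3%, 59%, 49% and 73%.

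RefSeq windows were matched for 36 of the 41 members, giving 50 windows because some genes have several starts, which can overlap. Hnrnpll, Hnrnpul2, Sf3b4, Sf3b5 and U2af2 were not matched. SP1 letters occurred in 78% of the members' windows and 35.7% of all 32851 windows, ETS letters in 34% and 8.86%, YY1 letters in 14% and 2.24%, CCAAT in 52% and 37.4%, NRF1 letters in 6% and 2.71%, and TATA letters in 10% and 13.6%. The full set includes genes that neutrophils do not express. These matches describe the windows and say nothing about which factor binds there.

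Genes that work with the members likewise gave no call after adjustment. Of 9 tested kinases and phosphatases that set the phosphorylation of SR proteins, 5 were above 0 and 4 below, with a median log2 change of 0.02 and no gene at an unadjusted p under 0.05. Clk4 (0.23) and Clk3 (-0.20), nuclear kinases of SR proteins, had the smallest p in each direction. Of 16 SR-related proteins, 11 were above 0 (median 0.10) and none had an unadjusted p under 0.05, with Scaf11 at 0.50 (0.24 without Rragc+/+ replicate 2) and Srrm2, a scaffold of nuclear speckles, at -0.26. Of 12 Sm and LSm proteins, which form the rings around spliceosomal RNAs, 9 were above 0 (median 0.18) and none had an unadjusted p under 0.05, with Lsm8 at 0.56 (0.27 without Rragc+/+ replicate 2) and Lsm4 at -0.09. Leaving out single libraries, the kinase median ranged from -0.07 to 0.03 and the SR-related median from 0.01 to 0.15, and the latter was -0.02 with the GC trend removed. The Sm and LSm median was -0.10 without RragcS74N/+ replicate 4 and 0.43 without RragcS74N/+ replicate 1.

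Of 16 genes of the U1 and U2 particles and branch point recognition, 8 were above 0 and 8 below (median -0.01). Phf5a, an SF3b subunit whose name falls outside the family searched, had 107, 132, 118, 129 and 85.2 normalized counts in Rragc+/+ and 70.9, 74.2, 97.9 and 86.7 in RragcS74N/+. The genotypes overlapped only through Rragc+/+ replicate 5, and the log2 change was -0.46 (95% interval -0.86 to -0.06, adjusted limma p 0.713). Snrnp70, a U1 protein, was at 0.42 (unadjusted limma p 0.0677), at 0.52 without Rragc+/+ replicate 2, where its unadjusted p was under 0.05, and at 0.75 with the GC trend removed (unadjusted limma p 0.00174), where its adjusted p was 0.873. Of 12 tri-snRNP genes, 5 were above 0 and 7 below (median -0.04). Prpf6, which bridges the U5 and U4/U6 particles, had 99.4, 169, 147, 121 and 96.3 in Rragc+/+ and 96.8, 78.3, 102 and 64.8 in RragcS74N/+, a log2 change of -0.55 (95% interval -1.01 to -0.09, adjusted limma p 0.713). Ppih, a low gene with 4.07 to 26.1 normalized counts, was at 0.52 (95% interval -0.54 to 1.59). Phf5a and Prpf6 had an unadjusted p under 0.05 and were the only ones of their lists that did.

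Of 29 other splicing regulators, 21 were above 0 and 8 below (median 0.09). Ptbp2 (0.54) and the cold-inducible Rbm3 (0.49) were higher at an unadjusted p under 0.05, and Ptbp1, which represses many exons including one of Ptbp2, was at -0.42 (95% interval -0.85 to 0.002). Ptbp1 had 58.0, 85.3, 53.4, 58.7 and 56.1 normalized counts in Rragc+/+ and 39.1, 41.7, 57.2 and 46.0 in RragcS74N/+, and Ptbp2 had 40.8, 24.5, 44.1, 29.7 and 31.1 and 46.4, 55.9, 37.7 and 58.5. Rragc+/+ replicate 2 was the highest library for Ptbp1 and the lowest for Ptbp2, and without it the changes were -0.31 and 0.44. Of 13 nonsense-mediated decay factors, 6 were above 0 and 7 below (median -0.06), and this median ranged from -0.21 to 0.08 when single libraries were left out and was 0.05 with the GC trend removed. Rbm8a, a core protein of the exon junction complex, was lower at an unadjusted p under 0.05, with a log2 change of -0.38 (adjusted limma p 0.713). Without Rragc+/+ replicate 2 the change of Rbm8a was -0.28 and its unadjusted p no longer under 0.05. Its partner Magoh was at 0.51 (95% interval -0.12 to 1.14), and at 0.36 without Rragc+/+ replicate 2. No gene of these lists passed an adjusted p of 0.05.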

How the data were processed

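Libraries of sorted marrow neutrophils were primed with oligo-dT, so that reads come from 3′ ends, and second strands carried molecular identifiers. The submitters' notes and the study's methods name alignment to GRCm39 with TopHat2 2.0.10 and SAMtools 1.9, and strand-aware gene counting with HTSeq 0.6.1. The deposited values are a signal: the authors divided each library's gene counts by a size factor. Use of the identifiers to collapse reads, and the filter behind the gene list, are not given in the sources used here, so scarce transcripts may be missing and counting error may understate the noise.

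Columns were matched to the 9 samples by title, and 0 columns had no sample. Every value was a whole multiple of the value of 1 read (100% of values, tolerance 0.05), which gave the recovered reads. Values were tested as log2(value + 1) in limma 3.58.1 (R 4.3.3) with trended moderation, for the 6673 genes with a mean of at least 10 over all libraries, with genotype as the one term and Benjamini-Hochberg adjustment over all of them. Fold changes on this scale understate the change of low genes. edgeR 4.0.16 and DESeq2 1.42.0 on the recovered reads each called 0 genes after adjustment, and 6.89% and 6.71% of genes at an unadjusted p under 0.05. The scripts were checked on simulated data.

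The members and the gene lists were chosen with earlier results of these data known. Values in each library are given for the 2 most abundant members of each role, any member with an unadjusted p under 0.05 or with genotypes that do not overlap, the 4 highest and the 4 lowest changes, and, in each other list, the gene with the smallest p in each direction is named, with Rragc, Ly6g, Itgam and Ptprc. Other members are given by their range or change. Values by library of Hnrnph2, Hnrnph3 and Hnrnpa2b1, and the mention of Rbm3 and of single marker genes, were added after their values were seen. Alternatives were pseudocounts of 0.5 and 5, no filter and a mean of at least 50, 2 other scalings, array weights, no trend, the 2 count tests, removal of each library, and, added after the data were seen, removal of the trend on the GC content of the last 500 transcript bases (GENCODE models on GRCm38). Promoters came from RefSeq (GRCm38.p6). Protein sequences were not used here.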

Additional observations from a re-analysis of the deposited data

Results flagged for a closer look

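Within each genotype, the highest or lowest library of each named gene and each tested member was compared with the rest. Dixon's ratio of gap to range was used, on log2(value + 1). Of 116 such groups 6 were past the 95% critical value, where chance gives about 1 in 20, or 5.8. For U2af1, Rragc+/+ replicate 2 was low (ratio 0.765). For Hnrnpdl, Rragc+/+ replicate 3 was high (ratio 0.774), within a group that spanned only 369 to 386 normalized counts. For Sf3b2, RragcS74N/+ replicate 4 was low (ratio 0.839), and for Sf3b3 the same library was high (ratio 0.866). For Ptbp1, Rragc+/+ replicate 2 was high (ratio 0.800), and for the SR protein kinase Clk4, RragcS74N/+ replicate 3 was low (ratio 0.920).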

How the results depend on the processing

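The count of genes past an adjusted p of 0.05 was 0, for the members and for all genes, under each of the 11 alternatives and in the 9 fits that each left out 1 library. The count of all genes at an unadjusted p under 0.05 was 388, and 191 with a mean of at least 50, 769 with array quality weights, 254 with the GC trend removed and 201 to 907 when a library was left out. For the members it was 1, and 4 with array quality weights (Hnrnph1, Sf3a1, Sf3b6 and Srsf1), 0 with the GC trend removed and 0 (without Rragc+/+ replicate 2, Rragc+/+ replicate 4 or RragcS74N/+ replicate 4) to 6 (without Rragc+/+ replicate 5). Members below 0 numbered 12, and 20 with the GC trend removed. With the GC trend removed, the changes of Hnrnpk (-0.036), Hnrnpc (-0.033), Srsf5 (-0.0070), Clk3 (0.030) and Lsm4 (0.31) took the other sign, as did Hnrnpdl (-0.041), Hnrnpd (-0.11), Hnrnpm (-0.078), Srsf6 (-0.055) and Srsf7 (-0.055), so that 8 members turned, and as did Srsf2 (0.015) with array quality weights. Leaving out each library, the SF3 median ranged from -0.072 to 0.17, Hnrnpc from -0.072 to 0.12, Srsf2 from -0.12 to 0.080, U2af1 from -0.21 to 0.28, Lsm4 from -0.22 to 0.088, Rragc from -0.15 to 0.0011 and Ly6g from -0.15 to 0.18. The cause of these shifts was not tested. Neither a scaling nor removal of the GC trend moved the median of all genes by more than 0.012. No paired analysis was possible because replicates carry no number in the labels. Low members such as Hnrnph1, with 6 reads in its lowest library, are limited by depth.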
